A study of Caenorhabditis elegans with 2 samples.

Results

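Regions at autosomal tRNA genes were taken from the authors' pooled list of peaks and background, which was called on both replicates together and held 30000 regions. A region entered the set if it lay on chromosomes I to V and its summit, the point of highest signal, was within 500 bp of an annotated tRNA gene, whatever its signal. This gave 268 regions out of 24779 on the autosomes, or 1.08%, while sequence within 500 bp of a tRNA gene made up 0.398% of the autosomes. The data came from chromatin immunoprecipitation and sequencing with an anti-GFP antibody on whole late embryos of Caenorhabditis elegans, labelled as 4 hours old, synchronised by egg bleaching and of mixed sex. All worms were of strain OP709, which carries the mutation unc-119(tm4063) and the transgene wgIs709. That transgene holds T23F11.4::TY1::EGFP::3xFLAG, a tagged copy of the studied protein, together with unc-119(+), which rescues the mutation. Both biological replicates, numbered 1 and 2, belong to 1 group of 2 samples, and a control experiment named in the labels was not analysed here, so regions were compared within the same lists.

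Transfer RNA genes are short genes transcribed by RNA polymerase III. Their promoter lies inside the gene, as an A box near the 5′ end and a B box further in, both bound by the factor TFIIIC, which brings TFIIIB to the DNA just upstream. Transcription ends at a run of T bases after the gene. Most amino acids are served by many gene copies, often of identical sequence, scattered over the genome.

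The genes printed here show what a summit within 500 bp was measured against. The first 6 belong to the strongest regions, and Y54G2A.t2, an aspartate tRNA gene, belongs to the region nearest the median signal. Y51H4A.t2 and K09C6.t1 had no region within 500 bp in the pooled list and no match to the A box, and were chosen after their values were seen. Sequences are from RefSeq, assembly WBcel235, on the strand of the gene. The first run of capitals marks the first match to the A box letters in the first 30 bases. The later run marks the B box in its looser form, GTTCNANNC.
F57F5.t1 (chrV:12002176-12002260, + strand): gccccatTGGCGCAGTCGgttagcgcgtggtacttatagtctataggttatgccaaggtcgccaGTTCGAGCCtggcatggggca
F29C4.t1 (chrIV:143982-144054, + strand): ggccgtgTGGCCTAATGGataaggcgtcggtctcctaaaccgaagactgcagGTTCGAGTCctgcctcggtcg
ZC455.t1 (chrV:12780386-12780467, - strand): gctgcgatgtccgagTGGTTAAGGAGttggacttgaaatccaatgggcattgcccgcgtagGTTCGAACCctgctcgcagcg
K06A4.t1 (chrV:9503562-9503633, + strand): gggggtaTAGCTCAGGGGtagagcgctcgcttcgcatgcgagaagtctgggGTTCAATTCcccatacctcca
F15B9.t1 (chrV:13003509-13003580, - strand): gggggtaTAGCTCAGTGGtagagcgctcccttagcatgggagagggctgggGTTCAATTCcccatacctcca
C04A2.t1 (chrII:6853204-6853285, + strand): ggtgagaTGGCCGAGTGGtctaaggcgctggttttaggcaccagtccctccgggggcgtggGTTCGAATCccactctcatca
Y54G2A.t2 (chrIV:2802337-2802408, + strand): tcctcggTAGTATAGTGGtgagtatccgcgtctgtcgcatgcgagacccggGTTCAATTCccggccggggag
Y51H4A.t2 (chrIV:16577306-16577387, + strand): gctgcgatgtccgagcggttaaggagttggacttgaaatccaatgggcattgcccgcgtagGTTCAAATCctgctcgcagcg
K09C6.t1 (chrV:857325-857396, + strand): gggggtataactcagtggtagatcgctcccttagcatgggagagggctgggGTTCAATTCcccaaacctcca
F57F5.t1 is an isoleucine tRNA gene with an intron, F29C4.t1 an arginine, ZC455.t1 and Y51H4A.t2 serine, K06A4.t1, F15B9.t1 and K09C6.t1 alanine, and C04A2.t1 a leucine tRNA gene. Counted from 1 at the 5′ end, Y51H4A.t2 differed from ZC455.t1 by 3 substitutions, T16C, G66A and C69T, with the base of ZC455.t1 first. K09C6.t1 differed from F15B9.t1 by 3 substitutions, G10A, G23T and T65A, with the base of F15B9.t1 first. G10A fell in the A box letters of F15B9.t1, which start at base 8. T16C fell in the match marked in ZC455.t1. That match starts at base 16 rather than at the usual base 8, so it need not be the A box. The lack of a match in Y51H4A.t2 thus need not mean the lack of an A box. G66A and C69T fell in the B box of ZC455.t1 and left the looser letters intact.

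The regions at autosomal tRNA genes had a higher median signal than other autosomal regions of the pooled list, and many were in the authors' optimal set, the peaks that passed the irreproducible discovery rate step. Of the 268 regions, 78 were in the optimal set, a share of 29.1% (Wilson 95% interval 24.0 to 34.8%), against 401 of the 24511 other autosomal regions, or 1.64%. Over all autosomal regions the share was 1.93%. The regions at tRNA genes made up 16.3% of the 479 optimal regions on the autosomes. The interval covers counting error only, and no test was made, since regions of 1 pooled list are not replicates of a condition.

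Signal values, which the authors' caller gave to each region, had a median of 77.3 at autosomal tRNA genes, a lowest value of 35.04 and a highest of 431. The other autosomal regions had a median of 47.0, so the ratio of the medians was 1.64. In replicate 1's own list, 271 regions lay at autosomal tRNA genes, with a median of 29.0 against 20.4 for other autosomal regions. In replicate 2's list the 254 such regions had a median of 51.5 against 33.7. The higher level at tRNA genes was thus present in each replicate list, at ratios of 1.42 and 1.53. Every region of the optimal set had a higher signal than any region outside it, so the optimal share is a count of regions above 1 level of signal and not a measurement apart from it.

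**Figure D1:**
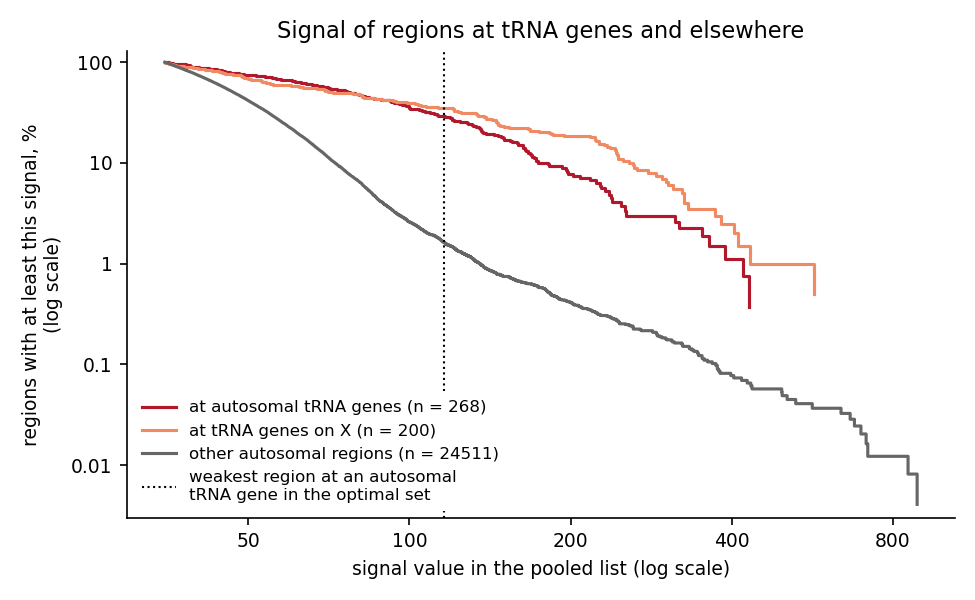
Share of regions (y axis, log scale) with at least a given signal value in the pooled list (x axis, log scale), for regions at autosomal tRNA genes, at tRNA genes on X and elsewhere on the autosomes. Both tRNA curves lie above that of other regions over most of their range, and 29.1% of regions at autosomal tRNA genes reach the dotted line, against 1.64% of other autosomal regions.

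Regions at autosomal tRNA genes were found at all levels of signal but were densest among the strong ones. Among autosomal regions ordered by signal, they were 7 of the first 50, 32 of the next 150, and 39 of those ranked 201 to 479. They were 33 of the 521 regions ranked 480 to 1000, or 6.33%, 57 of the 4000 that followed, or 1.43%, and 100 of the last 19779, or 0.506%. The share was highest at ranks 51 to 200, at 21.3%, against 14% in the first 50 and 13.98% at ranks 201 to 479. These last 100 lay in the long tail of a list to which no threshold was applied.

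The regions at tRNA genes on X and at snoRNA genes, which make the RNAs that guide chemical changes in ribosomal RNA, were the most alike in kind. At X tRNA genes 70 of 200 regions were optimal, or 35%, with an interval of 28.7 to 41.8% that overlaps the one at autosomal tRNA genes. The median signal was 77.3 at autosomal tRNA genes and 71.5 at those on X, and the upper quartiles were 125 and 146. At autosomal snoRNA genes 57 of 224 regions were optimal, or 25.4%, with a median signal of 65.7. At autosomal snRNA genes, which make spliceosomal and related RNAs, 8 of 62 were optimal, or 12.9%, with a median of 58.3.

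The strongest region lay at T21B4.t1 on chromosome II, an isoleucine tRNA gene, with a signal of 431 in the pooled list, 174 in replicate 1 and 258 in replicate 2. The region at C37A2.t1 on chromosome I, a cysteine tRNA gene, had 420.4 in the pooled list, 137 in replicate 1 and 272 in replicate 2. At F57F5.t1 on chromosome V, the isoleucine gene printed above, the values were 388, 117 and 267. These 3 regions kept a high value in both replicate lists, though replicate 1 placed T21B4.t1 above C37A2.t1 and replicate 2 placed it below. B0523.t1, a tryptophan tRNA gene and the strongest on chromosome III, had 363 in the pooled list, 134 in replicate 1 and 228 in replicate 2. F29C4.t1, an arginine gene and the strongest on chromosome IV, had 352, 117 and 233. ZC455.t1, a serine gene, had 319 in the pooled list, with 113 in replicate 1 and 208 in replicate 2. The other 6 of the 12 strongest had pooled values from 238 to 313 and lay at K06A4.t1 and F15B9.t1 (alanine), F56F3.t1 (arginine), C04A2.t1 (leucine), T15B12.t1 (methionine) and K11H3.t2 (serine).

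The 12 strongest regions lay on all 5 autosomes, at genes for 8 amino acids. At 4 of them a protein-coding start lay within 1000 bp of the summit. The summit at T21B4.t1 was 367 bp from the start of the collagen gene col-85, and F57F5.t1 was 396 bp from gcy-33, a soluble guanylate cyclase gene, and 860 bp from cpr-9, a cysteine protease gene. T15B12.t1 was 443 bp from T15B12.1, and K11H3.t2 was 983 bp from twk-48, a potassium channel gene.

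Values just inside and just outside the optimal set were close. The weakest optimal regions were at T04D3.t2, Y49E10.t1 and W09G10.t2, with pooled signals of 118, 117 and 116. The strongest regions outside it were at K07A1.t1, F49D11.t2 and F28F8.t2, each with 113. The lowest of all were at F22B7.t1 and Y92C3A.t2, with 35.6 and 35.5, and at W03C9.t1, with 35.04. W03C9.t1 also had a stronger region, in the optimal set with a pooled signal of 136. The summit of its weak region lay 242 bp after the first base of the gene. The region at F22B7.t1, a leucine gene, overlapped no region of either replicate list.

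Most regions at autosomal tRNA genes were found again in each replicate. A region of replicate 1 overlapped 240 of the 268 by at least 1 bp, or 89.6%, against 69.7% of all autosomal regions. A region of replicate 2 overlapped 256, or 95.5%, against 75.2%. Both replicates had one at 232 of 268, or 86.6%, against 49.97% of other autosomal regions. A stricter count took the strongest 635 nuclear regions of each replicate, as many as the optimal set holds. Of the 268 regions, 85 overlapped these in replicate 1, or 31.7%, against 2.59% of all autosomal regions. In replicate 2 the count was 91, or 34.0%, against 2.5%, and in both it was 63, or 23.5%, against 1.53%. The pooled list was called on the same reads as the replicate lists, so these overlaps share their source.

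Across the 232 regions with a value in both, signal in replicate 1 and replicate 2 had a Spearman correlation of 0.76 and a Pearson correlation of 0.79 on the log2 scale, and over the 78 optimal ones the values were 0.57 and 0.64. Over 149 regions at X tRNA genes the values were 0.88 and 0.87, and over 12247 other autosomal regions they were 0.32 and 0.54. These correlations are descriptions across regions that share 2 libraries. The groups also differ in spread of pooled signal. Quartiles were 49.3 and 125 at autosomal tRNA genes, 47.3 and 146 at those on X, and 40.2 and 58.1 at other autosomal regions. A wider spread can raise a correlation, so these values do not compare how well groups repeat. Replicate 2 gave the higher value, with a median ratio to replicate 1 of 1.70 and an SD of 0.51 on the log2 scale. Lists of separate replicates need not share a scale, so the ratio says nothing of the amount bound.

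**Figure D2:**
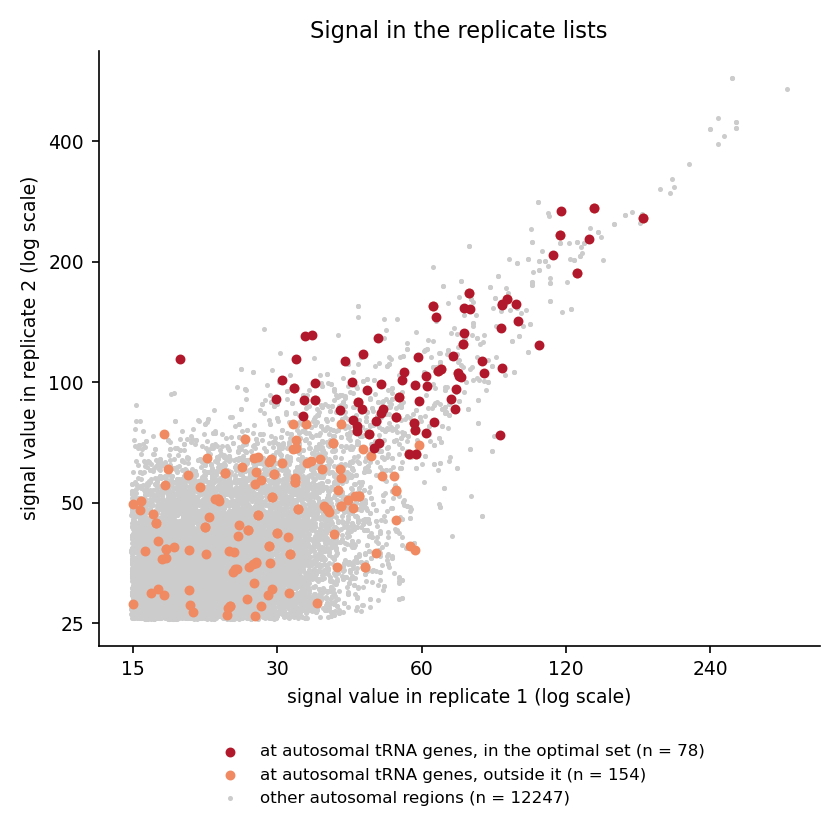
Signal value in replicate 1 (x axis, log scale) and replicate 2 (y axis, log scale) of the strongest replicate region that overlaps each pooled region, for regions with a value in both. The 78 optimal regions at autosomal tRNA genes lie along the upper part of the cloud, apart from 1 with a low value in replicate 1, and the 154 others at tRNA genes mix with the 12247 other autosomal regions.

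The region furthest from the shared trend was at C24H11.t1 on chromosome III. It was in the optimal set with a pooled signal of 129, and had 114 in replicate 2, rank 224 of its list, but 18.8 in replicate 1, rank 18534. The opposite case was T28D6.t2 on chromosome III, outside the optimal set at 100.3, with 58.2 in replicate 1, rank 326, and 38.2 in replicate 2, rank 8651. For these genes the replicates did not give the same picture. Replicate values of weak regions need care, since 95 of the 268 overlapped another region of the set. Of the regions with a replicate value, 86 shared their replicate 1 region with another member and 95 shared their replicate 2 region. The weak region at W03C9.t1 is such a case: its values of 32.5 and 96.9 in the replicates stand beside the lowest pooled signal of all. The optimal region at the same gene has the same replicate values.

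Summits lay on or next to the tRNA gene rather than evenly over the allowed distance. Of the 268 summits, 124 were inside the gene, or 46.3%, 70 were upstream and 74 downstream, and 203 were within 100 bp of it. The median position was 37.5 bp after the first base, in genes with a median length of 72 bp, between the usual starts of the A box at base 8 and the B box at base 53. In the optimal set 52 of 78 summits were inside the gene, or 66.7%, 16 were upstream and 10 downstream. Those 78 lay from 63 bp upstream to 156 bp after the first base, with a median of 36.5 bp, and none was more than 86 bp from its gene.

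Signal was highest at summits in or next to the gene. The 124 summits inside a gene had a median signal of 101 and 52 optimal regions, and the 54 summits at 1 to 50 bp had a median of 103 and 24 optimal regions. At 51 to 100 bp the median was 68.9 with 2 optimal regions of 25. At over 100 to 200 bp it was 53.4 over 33 regions, and at over 200 to 500 bp it was 42.4 over 32, with 0 optimal in either class. The median of other autosomal regions was 47.0. Overlap with the strongest regions of replicates 1 and 2 was 33.3% and 36.4% at over 100 to 200 bp, and 12.5% and 6.25% at over 200 to 500 bp, against 2.59% and 2.5% of all autosomal regions. Regions of the set that overlap each other can share 1 replicate region.

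Some genes had a weaker, additional region besides their strongest. The 224 regions that were the strongest at their nearest tRNA gene had a median signal of 88.3 and 53.6% of summits inside the gene, and included all 78 optimal regions. The 44 additional regions had a median signal of 45.6, 9.09% of summits inside the gene and a median position of 175 bp. By definition an additional region was weaker than the strongest at its gene, so lower signal was built into this split. On X 80 of 200 summits were inside the gene, or 40%, 70 were upstream, or 35% against 26.1% on the autosomes, and 50 were downstream. The median position there was 18 bp, closer to the start of the gene than on the autosomes. This difference was not tested.

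**Figure D3:**
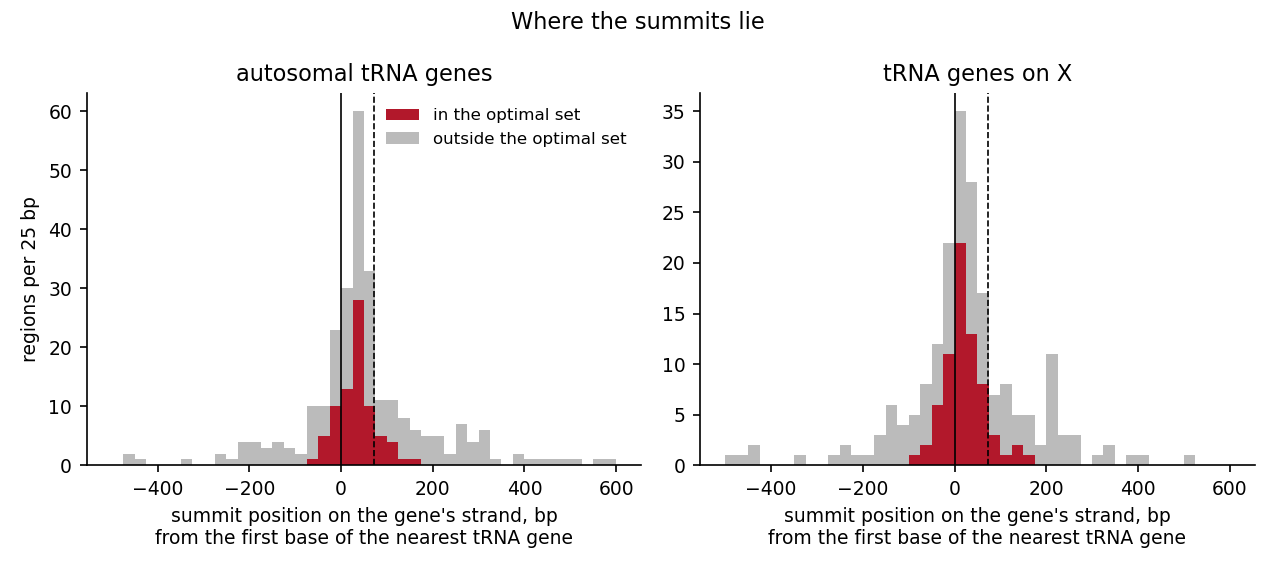
Position of summits (x axis, bp on the strand of the gene from its first base) for regions at autosomal tRNA genes (left) and at tRNA genes on X (right), as the number of regions per 25 bp (y axis), with the optimal set stacked below the rest. The solid line is the first base and the dashed line is 72 bp, the median gene length. The 78 optimal summits on the autosomes lie between 63 bp upstream and 156 bp after the first base, and those outside the set reach both ends of the range.

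The strict B box, searched as GTTCGANNC on both strands of the 300 bp around the summit, was found at 154 of the 268 regions, or 57.5%, against 2.64% of other autosomal regions and 3.23% of all autosomal regions. The looser GTTCNANNC, which includes every strict match, was found at 76.9%, against 10.7% of others. In the optimal set the looser letters were found at 94.9% of regions at tRNA genes, against 13.2% of other autosomal regions. Since tRNA genes carry a B box, the looser share mainly tells how often the window around a summit reached that part of the gene. The strict share also depends on the letters of the gene. Of the 336 autosomal tRNA genes, 95 lack the strict letters and 17 the looser ones. A match to letters is not a site of binding.

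Counted by gene, 243 of the 336 autosomal tRNA genes had a region within 500 bp, or 72.3%, and 83 had an optimal one, or 24.7%. In the replicate lists 246 and 231 of the 336 had a region. On X 202 of 276 genes had a region, or 73.2%, and 85 an optimal one, or 30.8%. No region was found in any of the 3 lists at 64 autosomal genes. The genes counted here include 44 that shared their strongest region with another tRNA gene, such as T23F1.t1 (lysine) and T23F1.t2 (proline), which shared a region of signal 232.

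Among the autosomes, chromosome II had the highest share of genes with a region, 48 of 57 or 84.2%, and chromosome IV the lowest, 48 of 71 or 67.6%. Chromosome III had 46 of 64 genes with a region and 20 with an optimal one, or 31.3%, and a median strongest signal of 103. Chromosome V had 53 of 78 with a region and 13 with an optimal one, or 16.7%, and a median of 68.5. Chromosomes I, II and IV had 24.2%, 26.3% and 26.8% of genes with an optimal region. In the replicates, the share of genes at one of the strongest regions on chromosomes III and V was 29.7% and 14.1% in replicate 1, and 32.8% and 17.9% in replicate 2. No test of a difference between chromosomes was made.

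Among amino acids, arginine genes most often had an optimal region among those with more than 10 genes, at 9 of 17, or 52.9%, and 15 of the 17 had a region. Of threonine genes 8 of 20 were optimal, or 40%, and 25% and 35% lay at the strongest regions of replicates 1 and 2. For arginine genes these replicate shares were 41.2% and 47.1%. Cysteine genes all had a region, 6 of 6, with 3 optimal, and glutamate genes had 17 of 18, with 4 optimal. At the other end, 1 of 14 asparagine genes had an optimal region, or 7.14%, as did 1 of 12 glutamine and 1 of 11 tyrosine genes. Phenylalanine genes had 3 of 8 with a region and histidine genes 5 of 11. On X, 8 of 27 arginine genes were optimal, or 29.6%, and 3 of 14 threonine genes, or 21.4%, so the autosomal order of amino acids was not repeated there. Every standard amino acid had at least 1 optimal gene on the autosomes, and the weakest of these strongest genes was Y49E10.t1 for glutamine, at 117. K11H12.t1, the single selenocysteine tRNA gene, had a region of signal 80.6 outside the optimal set, with 37.5 in replicate 1 and 49.1 in replicate 2.

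Genes that carry exactly the same sequence had very different signals. There were 43 sets of identical autosomal tRNA genes with 242 genes in all. Sets were formed by sequence on the annotated strand, so a copy annotated on the other strand would be left out. In the 11 sets with at least 8 autosomal copies, the highest signal was 2.81 to 12.01 times the lowest among copies with a region. Each of the 11 sets held optimal and other genes, and 9 held a gene with no region in the pooled list. At 12 of the 90 copies with a region the summit was nearer to another tRNA gene, and without them the folds were again 2.81 to 12.01 and each set still held optimal and other genes. Over 179 genes with a region in 36 sets, the intraclass correlation of log2 signal, which is 1 if copies are alike and near 0 if they are no more alike than other genes, was −0.05. The SD of log2 signal was 0.84 within sets and 0.82 over these genes. In the replicate lists the intraclass correlation was 0.02 for replicate 1 and −0.03 for replicate 2.

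The differences between identical copies recurred in the replicates. Across 149 genes of 34 sets, the deviation of a copy from the mean of its set in replicate 1 and in replicate 2 had a Pearson correlation of 0.77. This is a description over genes that share 2 libraries. Reads inside identical copies cannot be placed by sequence alone, and the handling of such reads is not given in the sources used here. All 32-base words inside the gene were repeated elsewhere in the genome at 251 of the 336 genes.

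The isoleucine set had the widest range. Among its 9 grouped genes, T21B4.t1 had a pooled signal of 431, followed by T09B4.t1 at 139 and Y119D3B.t1 at 102. C27A2.t1, T16D1.t1, T09B4.t2 and Y57A10B.t1 had between 72.5 and 83.4, Y92C3A.t2 had 35.8, and Y92C3A.t3 had no region. In replicate 1 T21B4.t1 had 174 against 17.0 to 52.9 at the other 8 genes, and in replicate 2 it had 258 against 27.6 to 81.7 at the 7 with a region. T21B4.t1 was thus apart from its grouped copies in each list. F33G12.t1, an isoleucine gene outside the set, had 223, with 87.9 in replicate 1 and 137 in replicate 2. Its sequence, like that of the set, occurs 20 times in the genome when both strands are counted. Whether it is a copy annotated on the other strand was not checked. The lysine set of B0350.t1 had 15 copies, of which 6 were optimal, at 116 to 209, 4 had a region from 38.2 to 98.2, and 5 had none. The glycine set of C12C8.t1 had 18 copies, with 13 at 38.3 to 136, 4 of them optimal, and 5 without a region in the pooled list. Among these 5, K04C2.t2 and Y51H4A.t3 had a region in replicate 1, at 19.6 and 16.9. The proline set of F02H6.t1 had 11 copies, of which 1 was optimal at 232, 4 had another region and 6 had none in the pooled list. Among these 6, T22F3.t2, W09D6.t1, W09D6.t2 and Y71H2AM.t1 had a region in replicate 1, at 18.9 to 26.8. W09D6.t2 also had one in replicate 2, at 27.9.

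**Figure D4:**
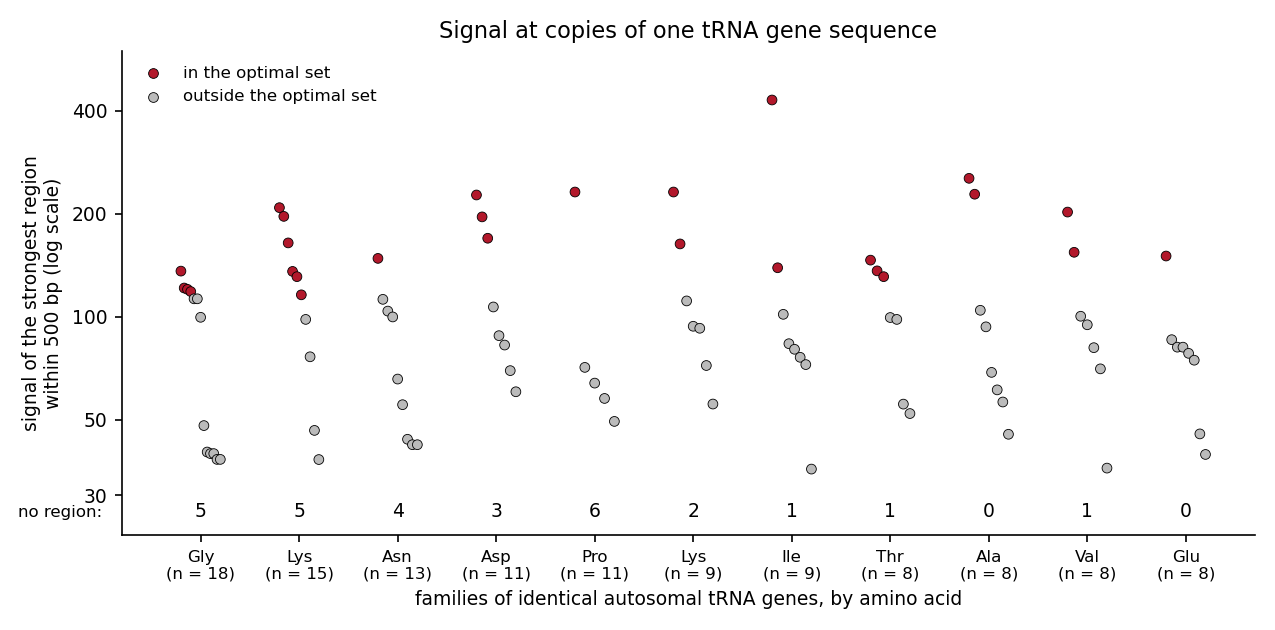
Pooled signal (y axis, log scale) of the strongest region within 500 bp of each gene, for the 11 sets of identical autosomal tRNA genes with at least 8 copies (x axis, by amino acid, with the number of copies). Each point is a gene with a region, the number under each set counts genes with none, and every set holds genes inside and outside the optimal set.

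The alanine set of F15B9.t1, whose gene sequence is printed above, had 8 autosomal copies, each with a region within 500 bp. Its copies differ only outside the gene, so the 50 bases before each are shown from the strongest to the weakest, in lower case since none is marked. They are from RefSeq, assembly WBcel235, on the strand of the gene.
F15B9.t1 (chrV:13003581-13003630, - strand): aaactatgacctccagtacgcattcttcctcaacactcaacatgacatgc
ZK622.t1 (chrII:5292282-5292331, + strand): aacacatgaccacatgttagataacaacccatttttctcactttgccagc
Y65A5A.t1 (chrIV:16398334-16398383, + strand): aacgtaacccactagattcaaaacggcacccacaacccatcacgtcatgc
Y7A9D.t2 (chrIV:16389283-16389332, - strand): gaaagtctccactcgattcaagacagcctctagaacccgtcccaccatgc
C52E12.t3 (chrII:7003065-7003114, - strand): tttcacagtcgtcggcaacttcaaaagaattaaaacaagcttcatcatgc
F49C5.t2 (chrII:12542584-12542633, + strand): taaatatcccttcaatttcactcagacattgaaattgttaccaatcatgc
M03A1.t1 (chrII:4565339-4565388, + strand): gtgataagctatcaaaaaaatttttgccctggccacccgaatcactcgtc
Y65A5A.t2 (chrIV:16399134-16399183, + strand): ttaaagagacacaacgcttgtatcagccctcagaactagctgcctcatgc
The pooled signal was 254 at F15B9.t1, with 94.3 in replicate 1 and 157 in replicate 2. It was 228 at ZK622.t1, with 75.7 and 153 in the replicates. Y65A5A.t1 had 104 and Y7A9D.t2 had 93.4, and neither was optimal. The value of 68.7 at C52E12.t3 belongs to a region whose summit lay inside the threonine gene C52E12.t2, 223 bp from C52E12.t3. F49C5.t2 had 61.1, M03A1.t1 had 56.3 and Y65A5A.t2 had 45.3. The first pair lay apart from the other 6 in each list, since those had 15.5 to 49.7 in replicate 1 and 29.8 to 64.2 in replicate 2. A+T made up 56% and 60% of the bases before the 2 strongest copies, and 46% to 68% before the others, so within this set the composition of the 50 bases did not separate them.

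Over all autosomal tRNA genes, those with less A+T in the 50 bp upstream more often had a region. This split was chosen after the data were seen. With at most 50% A+T, 41 of 109 genes had an optimal region, or 37.6%, and 93 had a region of any signal, or 85.3%. From 50 to 60% A+T the shares were 25.6% and 75.9% of 133 genes, and from 60 to 70% they were 9.72% and 56.9% of 72 genes. Above 70% A+T, 1 of 22 genes had an optimal region and 8 had any. The median strongest signal in these 4 classes was 106, 85.7, 61.4 and 45.1.

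The order of these shares by A+T class was the same in each replicate and on X. The share of genes at one of the strongest regions of replicate 1 was 30.3%, 24.1%, 9.72% and 0% from the lowest to the highest A+T class, and in replicate 2 it was 35.8%, 24.1%, 8.33% and 4.55%. On X the optimal shares were 47.8%, 44.0%, 17.3% and 3.85%. Among the 220 genes with 80 to 90% of 32-base words in and around the gene found once in the genome, the optimal shares were 41.8%, 28.1%, 7.89% and 14.3%, the last of 7 genes. Within sets of identical genes, the strongest copy had less upstream A+T than the weakest in 21 of 36 sets, the same in 3 and more in 12. The Spearman correlation of A+T and strongest signal over 243 genes was −0.26, with −0.26 over 246 genes in replicate 1 and −0.17 over 231 in replicate 2.

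**Figure D5:**
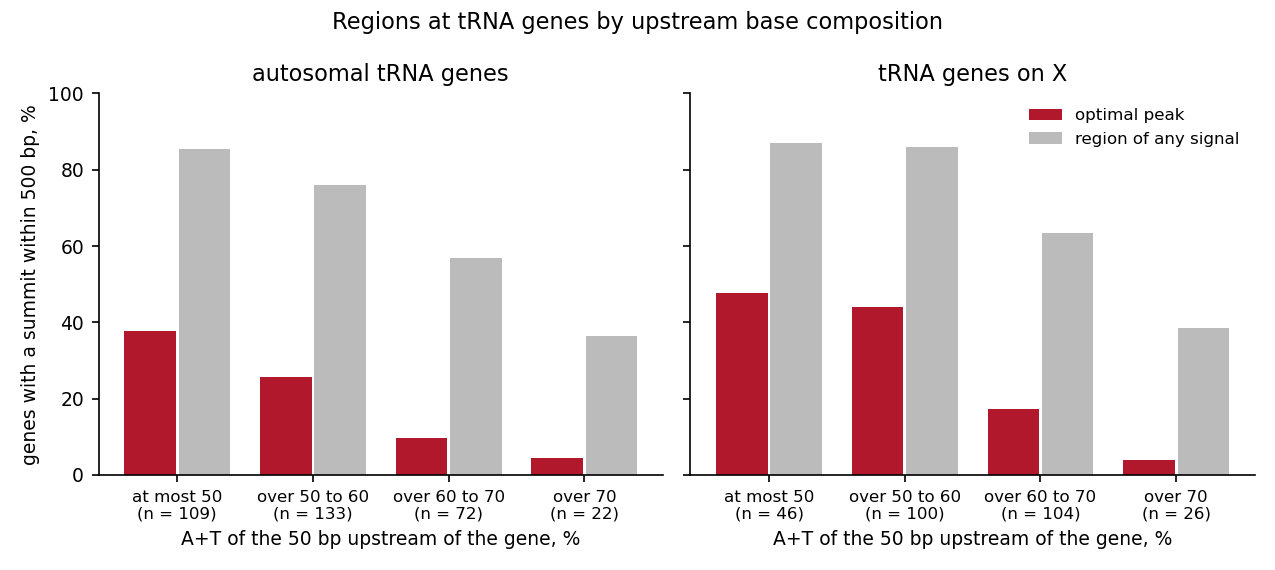
Share of tRNA genes (y axis, %) with an optimal region and with a region of any signal within 500 bp, by the A+T content of the 50 bp before the gene (x axis), on the autosomes (left) and on X (right). Optimal shares on the autosomes are 37.6% in the lowest class and 4.55% in the highest, and on X 47.8% and 3.85%.

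Base composition also went with signal away from tRNA genes. By GC content of the 300 bp around the summit, the optimal share of regions at tRNA genes was 0% of 12 at up to 35% GC, 18.6% at 35 to 40%, 22.6% at 40 to 45%, 41.6% at 45 to 50% and 50% of 18 above. Over other autosomal regions it was 0.918%, 0.862%, 1.38%, 2.47% and 6.79% in the same classes. In every class the share was higher at tRNA genes except the lowest, which held 0 optimal regions. The median GC was 44.3% at tRNA genes and 40% at other autosomal regions. The part of base composition in the difference between regions was not tested.

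Matches to the A box letters set apart few genes. Of 336 autosomal genes 322 had a match in the first 30 bases, and 239 of these had a region, or 74.2%, with all 83 optimal genes among them. The other 14 genes had a region in 4 cases and an optimal one in 0, and 12 of the 14 had a sequence that occurs once in the genome. On X the genes without a match numbered 6, with 2 regions and 0 optimal. Y51H4A.t2, printed above, had no region in any list, but 36.8% of the 32-base words in and around it were found once, against 82.6% at ZC455.t1. K09C6.t1 had no pooled or replicate 2 region and a value of 17.5 in replicate 1, and 91.8% of its words were found once, against 85.3% at F15B9.t1. The strict B box was present in 241 genes, of which 74.3% had a region and 25.7% an optimal one, against 67.4% and 22.1% of the 95 genes without it. On X the order was the other way, with 69.5% and 29.5% of genes with the strict box against 82.9% and 34.2% without it.

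The share of genes with a region rose with the share of surrounding sequence found once in the genome, but was lower again in the highest class. Of the 20 autosomal genes with at most 60% of 32-base words found once, 5 had a region and 0 an optimal one. From 60 to 80% it was 21 of 38 with a region and 8 optimal, and from 80 to 90% it was 183 of 220 and 64 optimal. Above 90% it was 34 of 58 and 11 optimal. Genes whose sequence occurs once had a region in 61.2% of 85 cases, those with 2 to 5 copies in 68.6% of 51, and those with 6 to 10 in 76.6% of 47. With 11 to 20 copies it was 85.7% of 98 and with over 20 it was 65.5% of 55. Optimal shares in these classes were 20%, 35.3%, 21.3%, 24.5% and 25.5%, with no steady order by copy number. Of the 64 genes with no region in any list, 40 had over 80% of words found once, and 50% had over 60% upstream A+T, against 22.8% of the other 272.

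Optimal shares were close between tRNA genes inside and outside protein-coding genes. Of the 119 tRNA genes inside a protein-coding gene on its strand, 26.1% had an optimal region, against 21.8% of the 78 on the opposite strand and 25.2% of the 139 outside such genes. A protein-coding start lay within 1000 bp of 120 of the 268 summits, or 44.8%, against 46.4% of other autosomal regions. In the optimal set it was 38.5% at tRNA genes against 64.8% elsewhere. Genes with another tRNA gene within 500 bp had an optimal region in 16.1% of 62 cases. The share was 20.2% of the 84 whose nearest neighbour was over 500 to 5000 bp away, and 29.5% of the 190 beyond 5000 bp. On X these shares were 27.8%, 19.7% and 42.3%, so they did not rise steadily with distance there.

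No stretch of 5000 bp held more than 4 regions, and 4 stretches held that many. The first 2 in genome order, both on chromosome I, are described here. T09B4.t1 and T09B4.t2, both isoleucine genes, had strongest signals of 139 and 76.1. Y53C10A.t1, Y53C10A.t2 and Y53C10A.t3, all glutamate genes, had 39.6, 78.2 and 45.4, with none in the optimal set.

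Genes of the machinery around RNA polymerase III and tRNA had no optimal region at their starts. The list held 25 genes, among them the snpc genes, for subunits of the complex that activates snRNA genes, subunits of RNA polymerase III, TFIIIC and TFIIIB, the polymerase repressor mafr-1 and the tRNA processing enzymes hoe-1 and rtcb-1. Of the 24 matched in the annotation, 0 had an optimal region with its summit up to 1000 bp from a start, against 2.34% of all protein-coding genes. A region of any signal was present at 11 of 24, against 51.7% of all protein-coding genes. Without the 7 snpc genes matched, it was 10 of 17, and 0 were optimal. The highest were 76.0 at hoe-1, which cuts the 3′ end of tRNA precursors, 75.1 at rpac-19, a subunit shared by RNA polymerases I and III, and 57.3 at tbp-1, the TATA-binding protein. With 24 genes and a background of 2.34%, a count of 0 does not set the list apart.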

How the data were processed

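Chromatin immunoprecipitation was mapped in 1 group of 2 biological replicates. The authors deposited 1 list of regions per replicate, with 30000 regions for replicate 1 and 25802 for replicate 2, a list called on both replicates together and an optimal set. Per the deposited notes the coordinates are in ce11, and no threshold was applied to the 3 larger lists, so they mix peaks with background. Sources used here do not name the aligner, the caller, their versions or the treatment of repeated reads. The signal value and the −log10 q-value per region are the authors', deposited in the lists. Signal levels were compared within a list, except in the ratio between replicates and in the alternative values, where lists need not share a scale. The q-value was not used to rank regions, since most optimal regions share its highest value. Depth is unknown, since no read counts were used, and gave no error.

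Summits were joined to tRNA genes of Ensembl release 115 (WBcel235, the same assembly as ce11), with amino acids and sequences from RefSeq. The members and lists were chosen with earlier results of these data known. Replicate values are those of the strongest replicate region that overlaps a member by at least 1 bp, and for sets of identical genes those of the strongest region of each replicate list within 500 bp. Words of 32 bases were counted over the gene and 150 bp on each side. Intervals are Wilson intervals at 95% and cover counting error only. No p-value was computed, since members are not replicates.

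Genes were named by a rule: the nearest tRNA gene of the 12 strongest regions, of the strongest per amino acid and per chromosome, of the 3 on each side of the optimal set's edge, of the 3 weakest, the genes of the 2 densest stretches (the first in genome order where tied), and protein-coding starts at the 12 strongest. Copies of sets of identical genes, genes of unlike replicates and genes with no A box match were added after their values were seen. The machinery list was set by hand, and its count uses starts within 1000 bp. Alternatives were other distances, the interval midpoint, stricter sets, other overlaps and letters, and each replicate alone. A setting with only the strongest region per gene, and the split by upstream A+T, were chosen after seeing the data. Placement and letter search were tested on simulated data. Python 3.11.15, numpy 2.4.6, pandas 2.3.3, scipy 1.17.1 and matplotlib 3.10.9 were used.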

Additional observations from a re-analysis of the deposited data

How the results depend on the processing

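Of 52 alternative values, 24 stayed close and 28 moved further. The 24 include all values with the interval midpoint in place of the summit. Nearly all regions of the set have the same width, with the summit at or beside the midpoint. Those values were therefore bound to stay close and say nothing of stability. Close means within the SD between the replicate lists, within 1.5 times for counts, within the binomial interval for a share without such an SD, and within 0.05 for the correlation. For the median signal this SD was 15.9. It includes any difference in scale between the lists, so close says little for that value. Shares and medians from each replicate alone were judged by an SD taken from those same values. Their labels therefore say nothing of stability. The number of regions was 236 with 200 bp and 360 with 1000 bp. A wider distance keeps every region of a narrower one, so this count could only rise with distance. From each replicate list alone, the number of regions was 254 to 271, the optimal share (with the 635 strongest regions in place of the optimal set) 24.7 to 29.5%, the median signal 29.0 to 51.5, the share inside the gene 37.3 to 40.2%, the median position 36 to 38 bp, the share of genes with a region 68.75 to 73.2%, the B box share 50.9 to 58.7% and the share near a protein-coding start 42.4 to 44.9%. With 200 bp in place of 500 bp, the optimal share was 33.05%, the B box share 65.25% and the share of genes 63.99%. With 1000 bp they were 21.94%, 43.89% and 81.85%. The optimal share was 18.28% with the 317 strongest regions. The share inside the gene was 66.67% for optimal regions and 48.32% with 1 tRNA gene within 500 bp, where the median position was 35.5 bp. The share among the strongest regions of both replicates was 16.79% with summits within 100 bp and 16.42% with the 317 strongest of each. The replicate correlation was 0.68 with the nearest summit. The B box share was 76.87% with looser letters and 49.25% in a 200 bp window. The share near a protein-coding start was 29.1% at 500 bp. With only the strongest region at each gene, chosen after seeing the data, the optimal share was 34.82%, the share inside the gene 53.57% and the median position 35 bp. No paired analysis was possible because the series holds 1 group. With 2 replicates of unknown depth, no value has an error beyond the range between their lists.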
